A study of Mus musculus with 35 samples.

Results

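Integrins, chemokine receptors and sphingosine-1-phosphate (S1P) receptors are the surface proteins with which a T cell holds on to other cells and to matrix and reads its way through tissue. The genes described here were chosen by symbol among the protein-coding genes of the deposited tables. They are the genes whose symbol starts with Itga or Itgb, the numbered Ccr, Cxcr and S1pr genes, Cx3cr1 and Xcr1. Ccr7, S1pr1, Itgb1bp1, Itgb3bp and Itgbl1 were left out by the rule. It gave 49 genes of 48709, namely 18 integrin alpha chains, 9 integrin beta chains, 17 chemokine receptors, 4 S1P receptors and Itgb1bp2. Itgb1bp2 (melusin) is a cytoplasmic protein that binds integrins and is no integrin chain. It entered through its symbol and is described apart. Of the 49 genes, 34 had enough reads to be tested.

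RNA was sequenced from OT-I CTLs, cytotoxic CD8+ T cells from the spleens of mice whose T cells carry a transgenic receptor for an ovalbumin peptide. The cells had been primed with antibodies to CD3 and CD28 and expanded in culture with IL-2 before the experiment, so the groups without IL-2 had it taken away. The 0 h group was taken at the start, untreated. The other 6 groups spent 24 h in medium that HCl had set to one of 3 pH values (7.4, 7 and 6.6). At each pH there was a group without IL-2 and a group given 200 IU/mL of it. IL-2 is the cytokine on which CTLs depend for growth. Dead cells were removed by Ficoll before RNA extraction. Each of the 7 groups had 5 biological replicates numbered 1 to 5, 35 libraries in all. These are cells in culture, and the values are levels of RNA, not of protein at the cell surface.

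An integrin is a pair of 1 alpha and 1 beta chain. The beta 2 chain pairs with Itgal to form LFA-1, which binds ICAMs on target cells. Beta 1 pairs with alpha chains that bind collagen, laminin or fibronectin, beta 7 pairs with Itga4 or Itgae, and beta 3 and beta 5 pair with Itgav. Chemokine receptors are G protein-coupled receptors that turn a chemokine gradient into migration: Cxcr3, Ccr2, Ccr4 and Cxcr6 mark effector T cells that enter inflamed tissue, and Cxcr4 is the receptor for CXCL12 in bone marrow and stroma. S1P receptors read the lipid S1P of blood and lymph.

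Libraries held 16721319 to 34033340 reads on genes (median 24730020). The share of reads on no annotated gene moved with the groups. It was 3.91 to 5.18% at pH 7.4 and 7.33 to 8.83% at pH 6.6 with IL-2, which do not overlap, and 7.7 to 10.2% and 6.47 to 9.19% without IL-2. Its part in the differences described here was not tested. All 9 markers of CD8 T cells fixed for the check, among them Cd8a, Cd3e and Lck, reached a level of 1 CPM (read counts scaled to a common library size) in every group. Their sum was 10339 to 13172 CPM at pH 7.4 and 4175 to 5629 CPM at pH 6.6 with IL-2. At pH 7.4 without IL-2 it was 3952 to 4612 CPM. Gzmb, a member of this list, had means of 7796, 845 and 124 CPM in these groups. Of the markers of other cells, Lyz2, Csf1r and Adgre1 of macrophages, S100a8 and S100a9 of neutrophils and Siglech and Clec9a of dendritic cells stayed under 0.5 CPM in every library. Other members of these lists were present, with Cd68 of the macrophage list at up to 32 CPM, Mpeg1 at up to 13.2 CPM, and Zbtb46 and Flt3 of the dendritic cell list at up to 31.3 and 6.4 CPM. The summed level was 17.4 to 63.7 CPM for 3 markers of CD4 and regulatory T cells, mostly through Zbtb7b, 8.77 to 95 CPM for 3 NK cell markers, mostly through Klrb1c, and 1 to 20.6 CPM for 4 markers of mast cells and basophils. Values below are CPM after TMM scaling, and values of 5 libraries are given in the order of the replicate numbers. Replicate 1 stood apart for several of these genes. It was the highest of the 5 in 7 of 7 groups for Itgae, S1pr3 and Itgad, and the lowest in 7 of 7 for Itgb5. The replicate number was a block in the main fit, because the study's tests were paired.

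The RefSeq promoters (GRCm38.p6, 250 bases before to 50 after the start, in the direction of the gene) are shown for genes that moved together. Of the 49 genes, 37 had an entry, with 40 promoters. The first 4 belong to genes that were higher at pH 6.6 both with and without IL-2, and the last 2 to genes at least 1 log2 unit lower in both. Itga9 was also at least 1 log2 unit lower in both, and its promoter is not shown. Capitals mark every match to 5 motifs searched on both strands: TTCNNNGAA (STAT), TGACGTCA (CRE, the cAMP response element), TGACG (its short form, which lies within the CRE), CACGTG (E-box) and TGTGGT (RUNX).
S1pr2 (chr9:20976744-20977043, minus strand): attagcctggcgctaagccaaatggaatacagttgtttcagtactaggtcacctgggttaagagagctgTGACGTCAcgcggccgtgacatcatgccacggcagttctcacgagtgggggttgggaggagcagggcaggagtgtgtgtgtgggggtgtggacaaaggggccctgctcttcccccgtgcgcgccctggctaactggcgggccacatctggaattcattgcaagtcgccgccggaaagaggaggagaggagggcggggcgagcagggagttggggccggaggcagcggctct
Cxcr4 (chr1:128592250-128592549, minus strand): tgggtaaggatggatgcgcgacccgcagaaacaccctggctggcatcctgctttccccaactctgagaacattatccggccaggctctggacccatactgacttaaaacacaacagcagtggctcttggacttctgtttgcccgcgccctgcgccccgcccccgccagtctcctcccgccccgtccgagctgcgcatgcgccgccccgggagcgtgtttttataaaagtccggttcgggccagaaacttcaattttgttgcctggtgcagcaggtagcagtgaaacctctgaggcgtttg
Itga2b (chr11:102469834-102470133, minus strand): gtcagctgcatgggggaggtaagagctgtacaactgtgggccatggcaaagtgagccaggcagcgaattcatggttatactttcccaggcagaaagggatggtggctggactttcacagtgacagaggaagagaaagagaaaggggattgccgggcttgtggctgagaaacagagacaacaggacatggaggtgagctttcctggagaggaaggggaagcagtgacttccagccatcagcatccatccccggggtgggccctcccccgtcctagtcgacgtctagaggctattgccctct
Itgb5 (chr16:33829415-33829714, plus strand): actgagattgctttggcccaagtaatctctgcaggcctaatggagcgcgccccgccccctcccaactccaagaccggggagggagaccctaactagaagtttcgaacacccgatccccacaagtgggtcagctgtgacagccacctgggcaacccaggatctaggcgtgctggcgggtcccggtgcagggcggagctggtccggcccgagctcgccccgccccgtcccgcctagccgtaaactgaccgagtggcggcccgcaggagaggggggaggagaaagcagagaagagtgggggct
Ccr4 (chr9:114496495-114496794, minus strand): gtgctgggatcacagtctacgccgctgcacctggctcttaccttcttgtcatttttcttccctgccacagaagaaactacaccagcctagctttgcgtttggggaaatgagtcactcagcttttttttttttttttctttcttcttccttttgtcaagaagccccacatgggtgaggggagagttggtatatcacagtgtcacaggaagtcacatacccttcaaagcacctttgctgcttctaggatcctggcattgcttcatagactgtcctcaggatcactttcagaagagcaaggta
Cxcr3 (chrX:101734098-101734397, minus strand): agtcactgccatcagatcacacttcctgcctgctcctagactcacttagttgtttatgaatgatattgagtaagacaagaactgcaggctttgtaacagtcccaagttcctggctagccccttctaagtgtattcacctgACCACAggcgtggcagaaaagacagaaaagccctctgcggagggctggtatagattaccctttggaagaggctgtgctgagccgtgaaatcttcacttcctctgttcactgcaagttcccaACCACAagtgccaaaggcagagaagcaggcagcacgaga

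S1pr2 had the only CRE among the 40 promoters, and its matches to the short form both lie within it. The CRE is in 1.79% of all 32851 promoters in the table. Cxcr3 had 2 matches to the RUNX motif, which was found in 9 of the genes with a promoter and is in 16.8% of all promoters. The STAT motif was found in 2 genes (Ccr6 and Itga10), against 8.3% of all promoters. The E-box was found in 1 (Xcr1), against 7.15%, and the short CRE in 6, against 20.8%. Among these 6 was Itga9, whose promoter is not shown. Cxcr4, Itga2b, Itgb5 and Ccr4 held none of these letters in the window shown. These are matches of letters only.

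At pH 6.6 with IL-2, compared with pH 7.4 with IL-2, 13 of the 34 genes were higher, 11 were lower and 10 did not pass the threshold (adjusted p under 0.05, edgeR). That is 70.6% called, and 76.3% of all 13819 genes tested were called in this comparison. Without IL-2, pH 6.6 gave 7 higher, 20 lower and 7 not called, 79.4% of the genes against a background of 67% of all genes. The median log2 fold change of the 34 genes was 0.05 with IL-2 and -0.51 without it, and over all genes tested the medians were -0.07 and -0.03. With IL-2 against without it at pH 7.4, 11 genes were higher, 19 lower and 4 not called (88.2%, background 80.4%). The cells had been expanded with IL-2, so a rise or fall with IL-2 means against cells that had it taken away. The plot of log2 fold changes by gene and comparison shows these counts gene by gene. In bulk RNA, fewer cells with a transcript and less of it per cell cannot be told apart. Comparisons that name the same group share its libraries: both pH comparisons with IL-2 and the IL-2 comparison at pH 7.4 all rest on the libraries at pH 7.4 with IL-2.

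**Figure D1:**
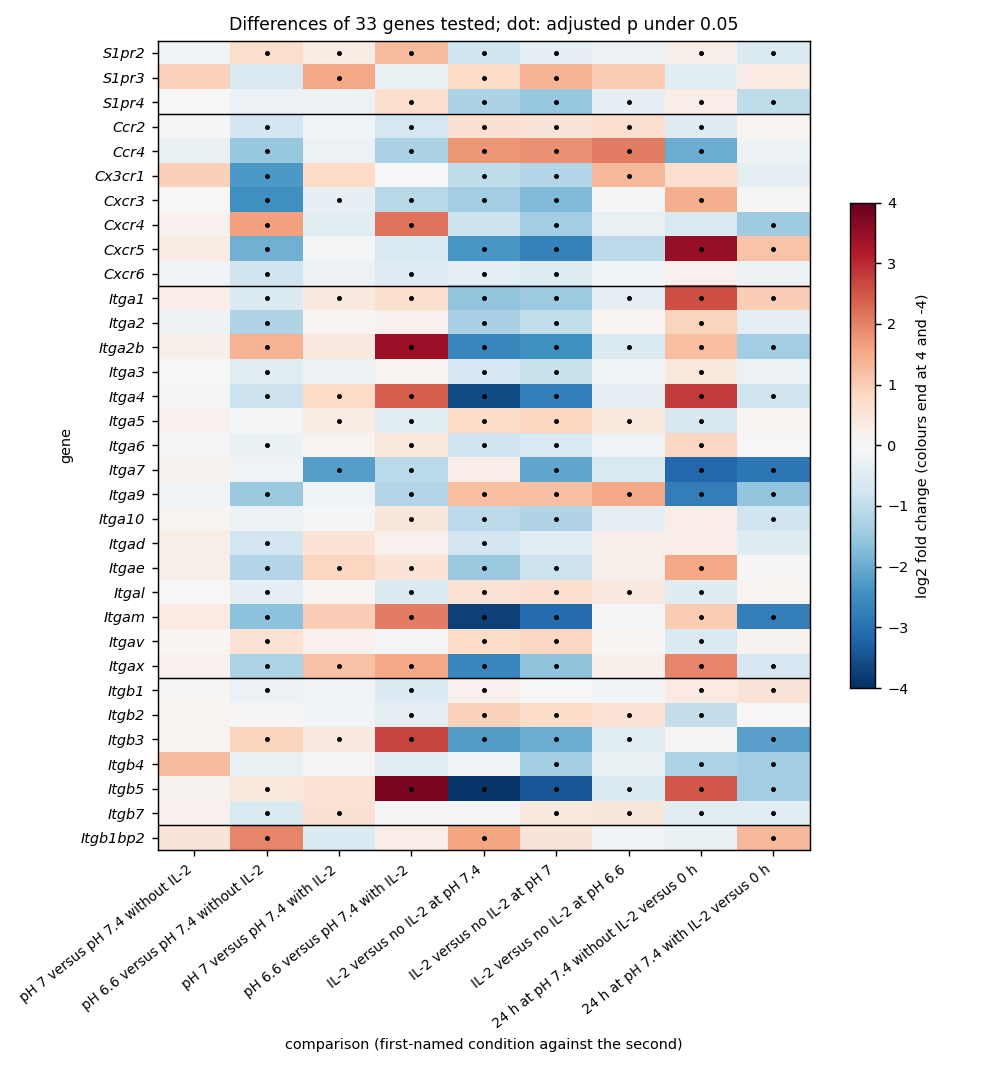
Log2 fold changes of 33 of the 34 tested genes (rows, by class) in 9 comparisons (columns), red for higher and blue for lower in the first-named condition, with a dot where the adjusted p (edgeR) was under 0.05. Itgb5 and Itga4 are among the deepest blue cells for IL-2 at pH 7.4 and among the red cells for pH 6.6 with IL-2, and the column for pH 7 without IL-2 has no dot.

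The S1P receptors differed from each other. S1pr2, a receptor coupled to G12 and G13 proteins that holds cells back from S1P, was higher at pH 6.6 in both settings. With IL-2 it was at 12.2, 15.4, 15.9, 17.3 and 15.5 CPM at pH 7.4 and at 28.7, 41.6, 37.6, 37.3 and 38.1 CPM at pH 6.6. Without IL-2 the values were 25.3, 26.4, 25.9, 26 and 29.4 CPM at pH 7.4 and 32.1, 45.9, 46.6, 47.8 and 44.2 CPM at pH 6.6. The groups did not overlap in either setting, and the lowest library at pH 6.6 was replicate 1 each time. The log2 fold change was 1.26 ± 0.1 (SE, n = 5 per group, adjusted p = 2.12e-13) with IL-2 and 0.69 ± 0.1 (adjusted p = 1.47e-07) without it, and the difference between these effects passed the threshold (0.57 ± 0.14, adjusted p = 0.000431). S1pr2 was lower with IL-2 than without it at pH 7.4, by a log2 fold change of -0.81 ± 0.1 (adjusted p = 4.84e-09). The S1pr2 libraries were 21.5, 20.5, 18.6, 27.4 and 26.3 CPM at 0 h, 22.9, 24.9, 22.4, 25.4 and 27.5 CPM at pH 7 without IL-2 and 15.4, 21.4, 21.8, 17.9 and 16.8 CPM at pH 7 with IL-2.

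S1pr4, which is expressed mainly in lymphoid tissue, stood at 96.2, 115, 134, 90.2 and 125 CPM at pH 7.4 without IL-2 and at 38.7, 44.3, 45.1, 52.5 and 50.5 CPM with IL-2. Every library with IL-2 was below every library without it, with a log2 fold change of -1.28 ± 0.11 (adjusted p = 7.1e-13). At pH 6.6 the libraries with IL-2 were at 69.6, 86.2, 73.8, 76.8 and 73 CPM, all above those at pH 7.4 with IL-2 (0.72 ± 0.1, adjusted p = 2.33e-07). Without IL-2 the level at pH 6.6, 84, 88.2, 93.1, 112 and 100 CPM, overlapped that at pH 7.4 (-0.23 ± 0.1, adjusted p = 0.0511). The S1pr4 libraries were 102, 91.6, 81.4, 85.7 and 105 CPM at 0 h, 96.4, 119, 115, 113 and 124 CPM at pH 7 without IL-2 and 39.1, 41, 47.4, 38.7 and 31.9 CPM at pH 7 with IL-2. S1pr3, at the lowest level of the 3, had means of 0.672 ± 0.524 CPM at pH 7.4 and 0.567 ± 0.561 CPM at pH 6.6 with IL-2 and of 0.419 ± 0.55 CPM and 0.268 ± 0.194 CPM without it, and was not called at pH 6.6 in either setting. The S1pr3 means were 0.522 ± 0.371 CPM at 0 h, 0.762 ± 0.636 CPM at pH 7 without IL-2 and 1.75 ± 0.779 CPM at pH 7 with IL-2. At pH 7 the libraries were at 1.85, 0.498, 0.186, 0.574 and 0.703 CPM without IL-2 and 2.9, 1.92, 1.44, 1.74 and 0.761 CPM with it, higher in 5 of 5 pairs with overlapping groups (1.39 ± 0.28, adjusted p = 4.51e-05), a call lost without the block (adjusted p = 0.0569). At pH 7.4 S1pr3 was also higher with IL-2 than without it (0.75 ± 0.35, adjusted p = 0.0476). That call was lost without the block (0.411), with the looser filter (0.0611) and without replicate 2, 3, 4 or 5 (0.1, 0.125, 0.248 and 0.0514). Replicate 1 was 1.83 to 7.6 times the median of the other libraries of its group for S1pr3. S1pr5 had at most 1 read in any library.

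**Figure D2:**
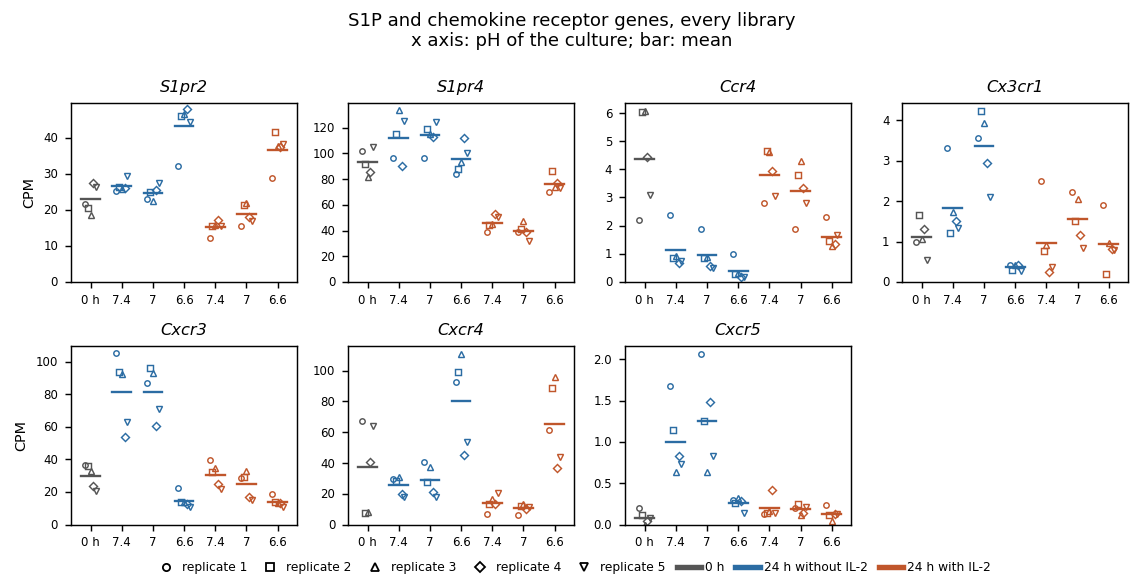
CPM of 2 S1P receptor and 5 chemokine receptor genes in each of the 35 libraries (linear axes from 0), by pH, with the replicate number as the symbol and the mean of 5 as the bar. S1pr2 and Cxcr4 have their highest means at pH 6.6, with and without IL-2, and Cxcr3 sits highest without IL-2 at pH 7.4 and pH 7.

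Of the 8 chemokine receptors tested, Cxcr4 was the only one that was higher at pH 6.6 in either setting. With IL-2, Cxcr4 was at 7.06, 13.2, 16.8, 13.3 and 20.3 CPM at pH 7.4 and 61.4, 88.8, 95.6, 36.8 and 43.8 CPM at pH 6.6. Its values without IL-2 were 29.9, 28.2, 31, 20.1 and 17.9 CPM and 92.7, 99.3, 111, 45.3 and 53.4 CPM at the same pH values. The groups did not overlap in either setting, and replicates 4 and 5 were the lowest at pH 6.6 in both. The log2 fold changes were 2.16 ± 0.47 (adjusted p = 0.000203) with IL-2 and 1.64 ± 0.45 (adjusted p = 0.00267) without it. Their difference did not pass the threshold (0.52 ± 0.64, adjusted p = 0.48). The Cxcr4 libraries were 67, 7.36, 8.12, 40.7 and 64.2 CPM at 0 h, 40.7, 27.8, 37.3, 20.9 and 17.7 CPM at pH 7 without IL-2 and 6.28, 11.8, 13.4, 10.2 and 11.6 CPM at pH 7 with IL-2. IL-2 at pH 7.4 was not called (-0.82 ± 0.47, adjusted p = 0.109).

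Cxcr3, the receptor for the interferon-induced chemokines CXCL9 and CXCL10, was the chemokine receptor with the largest fall without IL-2. It was at 105, 93.4, 92.6, 53.9 and 62.7 CPM at pH 7.4 without IL-2 and at 22.2, 13.8, 13.6, 12.8 and 10.9 CPM at pH 6.6 (-2.47 ± 0.12, adjusted p = 8.54e-18). With IL-2 the values were 39.9, 32.3, 34.6, 24.6 and 21.7 CPM and 18.8, 13.8, 13.1, 13.3 and 10.5 CPM (-1.12 ± 0.11, adjusted p = 1.39e-10). The groups were separate in both settings. The fall was larger without IL-2, with a difference between the effects of 1.35 ± 0.16 (adjusted p = 6.62e-09). At pH 7.4, IL-2 itself went with a lower level (-1.41 ± 0.11, adjusted p = 1.74e-13), while at pH 6.6 the libraries with and without it overlapped (-0.06 ± 0.12, adjusted p = 0.747). The Cxcr3 libraries were 36.4, 36.2, 33, 23.6 and 20.6 CPM at 0 h, 87.1, 96.2, 92.8, 60.4 and 70.9 CPM at pH 7 without IL-2 and 28.8, 29.4, 33, 17.1 and 14.9 CPM at pH 7 with IL-2. Every library at pH 7.4 without IL-2 was above every 0 h library (1.44 ± 0.11, adjusted p = 2.01e-13).

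Ccr2, whose product binds CCL2 and related chemokines and guides cells into inflamed tissue, was among the most abundant receptor RNAs. It had means of 900 ± 170 CPM (SD, n = 5) at pH 7.4 and 547 ± 105 CPM at pH 6.6 with IL-2, and of 587 ± 97.7 CPM and 347 ± 89.4 CPM without it. Its log2 fold changes at pH 6.6 were -0.72 ± 0.14 (adjusted p = 1.84e-05) with IL-2 and -0.78 ± 0.14 (adjusted p = 8.05e-06) without, and the difference between these effects did not pass the threshold (adjusted p = 0.776). It was higher with IL-2 at pH 7.4 (0.6 ± 0.14, adjusted p = 0.000176) and at pH 6.6 (0.66 ± 0.14, adjusted p = 0.00044). The Ccr2 means were 808 ± 148 CPM at 0 h, 578 ± 125 CPM at pH 7 without IL-2 and 823 ± 98.9 CPM at pH 7 with IL-2.

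Ccr4, the receptor for CCL17 and CCL22, was a gene of low level that was higher with IL-2 and lower at pH 6.6. It was at 2.39, 0.864, 0.932, 0.668 and 0.728 CPM at pH 7.4 without IL-2 and at 2.8, 4.65, 4.6, 3.93 and 3.07 CPM with IL-2 (1.78 ± 0.34, adjusted p = 1.5e-05). At pH 6.6 it was at 1.01, 0.294, 0.318, 0.164 and 0.188 CPM without IL-2 and 2.31, 1.44, 1.26, 1.36 and 1.67 CPM with IL-2. Replicate 1 was above the other 4 in all 3 groups without IL-2. The Ccr4 libraries were 2.19, 6.04, 6.06, 4.44 and 3.08 CPM at 0 h, 1.89, 0.858, 0.894, 0.574 and 0.496 CPM at pH 7 without IL-2 and 1.87, 3.8, 4.31, 3.34 and 2.79 CPM at pH 7 with IL-2. The log2 fold change at pH 6.6 was -1.26 ± 0.32 (adjusted p = 0.000821) with IL-2, where the groups were separate, and -1.52 ± 0.44 (adjusted p = 0.00319) without it, where they overlapped. Cxcr6, the receptor for CXCL16 on resident effector cells, had means of 361 ± 72 CPM and 256 ± 59.8 CPM at pH 7.4 and pH 6.6 with IL-2. Without IL-2 its means were 469 ± 74.7 CPM and 272 ± 38.3 CPM, with log2 fold changes at pH 6.6 of -0.5 ± 0.1 (adjusted p = 2.32e-05) with IL-2 and -0.79 ± 0.1 (adjusted p = 1.95e-08) without. The Cxcr6 means were 407 ± 45.3 CPM at 0 h, 435 ± 59.4 CPM at pH 7 without IL-2 and 309 ± 53.4 CPM at pH 7 with IL-2.

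Cx3cr1 and Cxcr5 were called at pH 6.6 without IL-2 but not with it, and the difference of the effects was itself called for both. Cx3cr1, the fractalkine receptor of cytotoxic effector cells, was at 3.33, 1.22, 1.74, 1.5 and 1.33 CPM at pH 7.4 without IL-2 and at 0.421, 0.294, 0.409, 0.409 and 0.282 CPM at pH 6.6 (-2.29 ± 0.38, adjusted p = 3.35e-06), the latter from at most 10 reads per library. In the presence of IL-2 it was at 2.51, 0.764, 0.903, 0.248 and 0.361 CPM and 1.91, 0.2, 0.965, 0.822 and 0.791 CPM, which overlap (0.01 ± 0.36, adjusted p = 0.973). The difference between the settings was 2.3 ± 0.53 (adjusted p = 0.000284). The Cx3cr1 libraries were 0.978, 1.65, 1.07, 1.3 and 0.546 CPM at 0 h, 3.57, 4.23, 3.95, 2.95 and 2.11 CPM at pH 7 without IL-2 and 2.23, 1.52, 2.06, 1.16 and 0.846 CPM at pH 7 with IL-2. Cxcr5, the receptor for CXCL13 that guides lymphocytes into follicles, was at 1.68, 1.14, 0.635, 0.834 and 0.728 CPM at pH 7.4 without IL-2 and at 0.295, 0.261, 0.318, 0.286 and 0.141 CPM at pH 6.6 (-1.91 ± 0.29, adjusted p = 9.57e-07). With IL-2 it was at 0.122, 0.139, 0.164, 0.414 and 0.135 CPM at pH 7.4 and 0.231, 0.12, 0.0419, 0.123 and 0.125 CPM at pH 6.6, at most 10 reads per library. Its difference between the settings had an adjusted p of 0.0458 in the fit of all libraries, of 0.0617 by DESeq2, 0.105 with the looser filter and 0.0943 without the block. Without replicate 1, 2 or 5 it was 0.326, 0.158 and 0.143. The Cxcr5 libraries were 0.196, 0.11, 0, 0.0407 and 0.0781 CPM at 0 h, 2.06, 1.25, 0.633, 1.48 and 0.827 CPM at pH 7 without IL-2 and 0.199, 0.253, 0.111, 0.145 and 0.211 CPM at pH 7 with IL-2. At 0 h Cxcr5 had at most 5 reads in a library, and it was higher after 24 h at pH 7.4 without IL-2 (3.47 ± 0.36, adjusted p = 1.93e-10).

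Some integrin genes were at least 1 log2 unit higher at pH 6.6 with IL-2, by log2 fold changes from 1.56 to 3.76. They were the beta chains Itgb3 and Itgb5 and the alpha chains Itga2b, Itga4, Itgax and Itgam. Over all genes tested, the median size of this log2 fold change was 0.71, and the share past the cut was not counted. At pH 7.4 each of these integrin genes was lower with IL-2 than without it. Itgb3, the beta 3 chain of the vitronectin receptor, was at 33.7, 71.9, 66.1, 78.4 and 76.1 CPM at pH 7.4 with IL-2 and 309, 526, 450, 402 and 397 CPM at pH 6.6 with IL-2 (2.7 ± 0.12, adjusted p = 1.69e-19). Without IL-2 it was at 234, 326, 300, 313 and 323 CPM and 454, 580, 552, 583 and 608 CPM (0.9 ± 0.11, adjusted p = 1.94e-08). Both pairs of groups were separate, and the library of replicate 1 was the lowest in each of these 4 groups. The Itgb3 libraries were 281, 265, 245, 303 and 325 CPM at 0 h, 286, 351, 288, 326 and 349 CPM at pH 7 without IL-2 and 54.9, 97.2, 88.9, 86.3 and 83.4 CPM at pH 7 with IL-2. The 0 h libraries lay above every library at pH 7.4 with IL-2 (-2.17 ± 0.12, adjusted p = 4.12e-16) and overlapping those at pH 7.4 without IL-2 (0.06 ± 0.11, adjusted p = 0.648). The rise at pH 6.6 was larger with IL-2, by 1.8 ± 0.16 (adjusted p = 8.66e-12).

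Itgb5, which like beta 3 pairs with Itgav to bind vitronectin, was at a lower level, and it too was lowest at pH 7.4 with IL-2 and higher at pH 6.6 with IL-2. It was at 0.0406, 0.382, 0.534, 0.372 and 0.542 CPM at pH 7.4 with IL-2 and 1.96, 6.24, 5.66, 5.59 and 5.62 CPM at pH 6.6 with IL-2 (3.76 ± 0.23, adjusted p = 6.25e-16). Without IL-2 the libraries were at 1.81, 5.65, 6.06, 6.43 and 7.79 CPM and 3.03, 7.09, 6.77, 9.49 and 10.1 CPM. Replicate 1 was the lowest in every group, and the groups overlapped without IL-2. The Itgb5 libraries were 0.587, 1.32, 0.945, 1.22 and 0.742 CPM at 0 h, 1.93, 7.55, 5.92, 7.87 and 7.44 CPM at pH 7 without IL-2 and 0.199, 0.796, 0.774, 0.725 and 0.254 CPM at pH 7 with IL-2. The difference without IL-2 (0.42 ± 0.16, adjusted p = 0.0215) was higher in 5 of 5 pairs. It was not called without replicate 1 (adjusted p = 0.0585), without replicate 4 (0.0992) or without the block (0.343). Itga2b, the alpha chain that pairs with beta 3 on platelets, was at 0.852, 0.903, 1.03, 1.49 and 1.35 CPM at pH 7.4 with IL-2 and at 15.2, 12.8, 9.1, 12.4 and 11.4 CPM at pH 6.6 with IL-2 (3.43 ± 0.18, adjusted p = 2.51e-17). Its values without IL-2 were 7.14, 6.6, 6.99, 5.63 and 7.88 CPM and 23.6, 12.9, 14.3, 20.7 and 19.5 CPM (1.39 ± 0.15, adjusted p = 1.4e-09), again with separate groups. The Itga2b libraries were 4.81, 3, 2.06, 2.44 and 2.65 CPM at 0 h, 7.56, 6.72, 8.27, 7.5 and 9.34 CPM at pH 7 without IL-2 and 1.59, 1.59, 1.47, 1.23 and 1.31 CPM at pH 7 with IL-2. The platelet markers Pf4, Ppbp, Gp9 and Gp1bb summed to at most 0.0366 CPM in any library and to 0 in every library with IL-2.

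Itga4, the alpha 4 chain of VLA-4 (with beta 1) and of the gut-homing receptor (with beta 7), moved in opposite directions at pH 6.6 with and without IL-2. It was at 164, 155, 190, 149 and 131 CPM at pH 7.4 without IL-2 and at 29.3, 15.3, 11.7, 9.35 and 6.19 CPM with IL-2 (-3.59 ± 0.22, adjusted p = 1.78e-15). At pH 6.6 it was at 115, 113, 72.9, 70.6 and 76.6 CPM without IL-2 and 87.1, 90.6, 72.8, 52.8 and 49.4 CPM with IL-2. The level at pH 6.6 was higher than at pH 7.4 with IL-2 (2.38 ± 0.21, adjusted p = 1.92e-11) and lower without it (-0.85 ± 0.2, adjusted p = 0.000353), with a difference of 3.23 ± 0.29 (adjusted p = 3.79e-11). The groups were separate in each. The Itga4 libraries were 25.1, 33.1, 27.1, 24.2 and 8.94 CPM at 0 h, 191, 158, 165, 134 and 130 CPM at pH 7 without IL-2 and 43.4, 27, 20.4, 15.6 and 15 CPM at pH 7 with IL-2. At pH 6.6 the libraries with and without IL-2 overlapped, although each of the 5 was lower with IL-2 (-0.36 ± 0.2, adjusted p = 0.186). Of its exon bases, 8.04% overlap Cerkl on the other strand.

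Itgax (CD11c) and Itgam (CD11b), beta 2 partners better known from myeloid cells and also found on effector CD8 T cells, moved in opposite directions in the same way. Itgax was at 4.99, 3.78, 2.18, 2.36 and 1.67 CPM at pH 7.4 with IL-2 and at 9.13, 8.04, 6.42, 10.9 and 8.99 CPM at pH 6.6 with IL-2 (1.56 ± 0.22, adjusted p = 1.97e-07). In the absence of IL-2 it was at 15.9, 21.6, 12.6, 22.6 and 18.2 CPM and 8.12, 5.82, 6.27, 10.5 and 7.47 CPM (-1.25 ± 0.2, adjusted p = 2.62e-06), and the difference was 2.81 ± 0.3 (adjusted p = 1.02e-09). Itgam was at 0.162, 0.174, 0.0821, 0.248 and 0 CPM at pH 7.4 with IL-2, at most 6 reads, and at 0.404, 0.28, 1.01, 0.452 and 0.708 CPM at pH 6.6 with IL-2 (2.06 ± 0.4, adjusted p = 3.03e-05). Without IL-2 it was at 2.07, 2.43, 2.2, 1.42 and 1.2 CPM and 0.463, 0.621, 0.818, 0.696 and 0.423 CPM (-1.63 ± 0.26, adjusted p = 2.6e-06). All 4 of these pairs of groups were separate. The Itgax libraries were 6.73, 5.24, 4.9, 3.91 and 2.73 CPM at 0 h, 17.6, 24.9, 14.3, 22.6 and 21.5 CPM at pH 7 without IL-2 and 9.54, 7.92, 6.48, 5.3 and 4.27 CPM at pH 7 with IL-2. The Itgam libraries were 0.861, 1.39, 0.73, 0.855 and 0.742 CPM at 0 h, 1.89, 3.29, 3.02, 1.68 and 1.86 CPM at pH 7 without IL-2 and 0.159, 0.398, 0.295, 0.29 and 0.211 CPM at pH 7 with IL-2. The value of Itgam is uncertain, because 68.7% of its exon bases are shared with an overlapping gene model (Gm49368) on the same strand, and reads there cannot be given to either gene alone. The sum of 7 monocyte and macrophage markers, mostly Cd68 with Mpeg1 at pH 7.4 and Cd68 at pH 6.6, was 13.9 to 17 CPM at pH 7.4 and 16.2 to 31.1 CPM at pH 6.6 with IL-2. Lyz2, Csf1r and Adgre1 were under 0.5 CPM in every library. The sum of 4 dendritic cell markers was 0.331 to 0.487 CPM and 12.7 to 23.3 CPM in the same groups, through Zbtb46, while Siglech, Clec9a and Flt3 were under 0.5 CPM there. Without IL-2, where Itgax and Itgam fell, the same sum was 3.17 to 8.63 CPM at pH 7.4 and 20.8 to 31.5 CPM at pH 6.6. There Zbtb46 was at 1.4 to 3.46 CPM at pH 7.4 and 20.6 to 31.3 CPM at pH 6.6, and Flt3 was at 0.984 to 6.4 CPM at pH 7.4 and 0.0818 to 0.757 CPM at pH 6.6. The sum of the macrophage list was 8.72 to 18.1 CPM and 17.3 to 33 CPM in these groups. The part of other cells in these values was not tested.

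**Figure D3:**
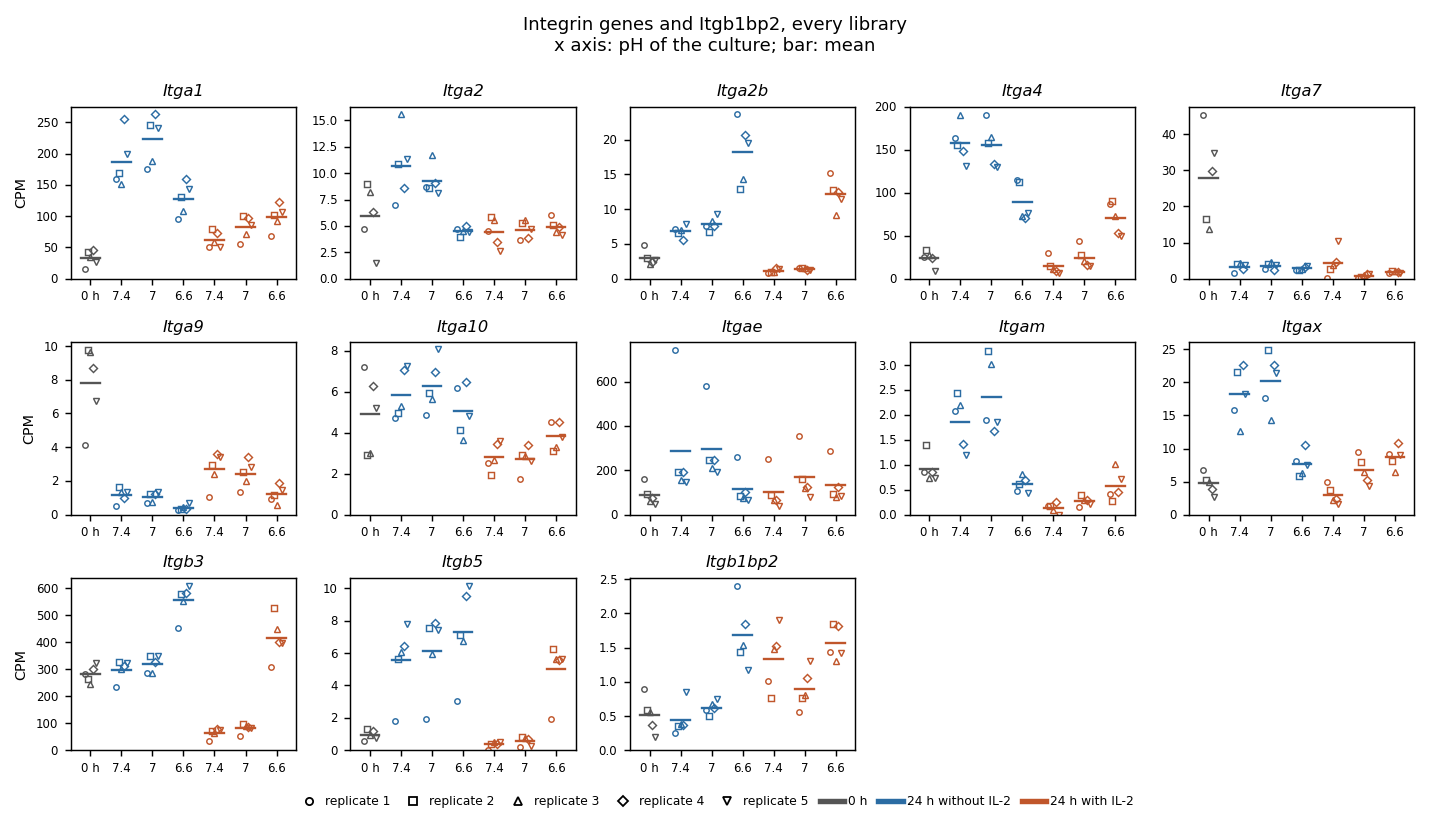
CPM of 12 integrin genes and Itgb1bp2 in each of the 35 libraries (linear axes from 0), by pH, with the replicate number as the symbol and the mean of 5 as the bar. Itgb3, Itgb5 and Itga2b sit near the bottom at pH 7.4 and pH 7 with IL-2 and well above it at pH 6.6, and replicate 1 (circles) is the highest for Itgae and the lowest for Itgb5 in every group.

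Itgae (CD103), which pairs with beta 7 and binds E-cadherin on epithelium, rose at pH 6.6 with IL-2 and fell without it, with a wide spread between replicates. It was at 742, 190, 157, 190 and 147 CPM at pH 7.4 without IL-2 and 259, 82.9, 75.3, 103 and 66.9 CPM at pH 6.6, a fall in 5 of 5 pairs (-1.17 ± 0.13, adjusted p = 3.87e-09). In the presence of IL-2 it was at 250, 86.8, 65.1, 64.8 and 36.3 CPM and 286, 90.6, 80.7, 126 and 83.7 CPM, a rise in 5 of 5 pairs (0.53 ± 0.13, adjusted p = 0.000594). Replicate 1 was 2.4 to 4.29 times the median of the other 4 libraries of its group. The Itgae libraries were 161, 92.7, 60.7, 73.7 and 46 CPM at 0 h, 581, 246, 208, 248 and 191 CPM at pH 7 without IL-2 and 355, 162, 120, 126 and 80.0 CPM at pH 7 with IL-2. The groups overlapped in both settings, and the rise with IL-2 was called only with the replicate block (adjusted p = 0.514 without it). Without replicate 1 the log2 fold changes were -1.07 without IL-2 and 0.63 with it. Itgb7 had means of 419 ± 48.9 CPM and 279 ± 17.3 CPM at pH 7.4 and pH 6.6 without IL-2 (-0.58 ± 0.11, adjusted p = 2.59e-05) and of 409 ± 79.7 CPM and 385 ± 56.5 CPM with it (-0.08 ± 0.11, adjusted p = 0.531). The Itgb7 means were 566 ± 125 CPM at 0 h, 469 ± 30.9 CPM at pH 7 without IL-2 and 615 ± 102 CPM at pH 7 with IL-2.

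Itga1 and Itga6, a collagen and a laminin receptor chain that pair with beta 1, also rose at pH 6.6 with IL-2 and fell without it. Itga1 was at 50.5, 79.2, 59.2, 73.4 and 51 CPM and 69, 102, 92.9, 123 and 107 CPM at pH 7.4 and pH 6.6 with IL-2 (0.65 ± 0.12, adjusted p = 2e-05). Its values without IL-2 were 160, 169, 151, 256 and 199 CPM and 95.6, 130, 109, 159 and 143 CPM (-0.56 ± 0.12, adjusted p = 0.000165). The groups overlapped, and the direction was the same in 5 of 5 pairs each time. The Itga1 libraries were 14.8, 42.4, 33.9, 46.2 and 26.3 CPM at 0 h, 175, 246, 189, 263 and 241 CPM at pH 7 without IL-2 and 55.5, 101, 71.7, 96.3 and 85.3 CPM at pH 7 with IL-2. The 0 h libraries lay below every library at pH 7.4 with IL-2 (0.98 ± 0.13) or without it (2.56 ± 0.13). Itga6 had means of 21.2 ± 3.32 CPM and 28.3 ± 2.83 CPM with IL-2 (0.42 ± 0.08) and of 37.2 ± 5.16 CPM and 31 ± 3.29 CPM without it (-0.26 ± 0.08). The Itga6 means were 21 ± 2.56 CPM at 0 h, 35.2 ± 5.17 CPM at pH 7 without IL-2 and 22.8 ± 2.25 CPM at pH 7 with IL-2. Itga2, the other collagen-binding partner of beta 1, was at 7.01, 10.9, 15.6, 8.6 and 11.3 CPM at pH 7.4 without IL-2 and at 4.67, 3.99, 4.5, 4.99 and 4.46 CPM at pH 6.6 (-1.21 ± 0.23, adjusted p = 2.56e-05). With IL-2 it was at 4.54, 5.83, 5.54, 3.48 and 2.62 CPM and 6.07, 5.08, 4.45, 4.89 and 4.16 CPM and was not called (0.19 ± 0.24, adjusted p = 0.48), and the difference passed the threshold (1.4 ± 0.33, adjusted p = 0.000407). The Itga2 libraries were 4.66, 8.97, 8.25, 6.27 and 1.52 CPM at 0 h, 8.73, 8.58, 11.7, 9.06 and 8.1 CPM at pH 7 without IL-2 and 3.7, 5.32, 5.53, 3.88 and 4.7 CPM at pH 7 with IL-2.

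The abundant chains of LFA-1 and of the beta 1 integrins moved by less than 1 log2 unit. Itgal had means of 1304 ± 159 CPM at pH 7.4 and 867 ± 128 CPM at pH 6.6 with IL-2 (-0.58 ± 0.1, adjusted p = 2.88e-06). Without IL-2 its means were 868 ± 130 CPM and 672 ± 68.9 CPM (-0.36 ± 0.1, adjusted p = 0.00175). Itgb2 had means of 411 ± 66.9 CPM and 320 ± 48.7 CPM with IL-2 (-0.35 ± 0.1, adjusted p = 0.00153), a fall in 4 of 5 pairs that was not called without replicate 3 (adjusted p = 0.0676). Without IL-2 Itgb2 did not pass the threshold (0.04 ± 0.1, adjusted p = 0.755). Both chains of LFA-1 were higher with IL-2 than without it at pH 7.4, Itgal by 0.59 ± 0.1 and Itgb2 by 0.94 ± 0.1. The same held at pH 6.6, by 0.37 ± 0.1 and 0.55 ± 0.1. The Itgal means were 1223 ± 295 CPM at 0 h, 871 ± 116 CPM at pH 7 without IL-2 and 1367 ± 159 CPM at pH 7 with IL-2. The Itgb2 means were 417 ± 48.2 CPM at 0 h, 231 ± 19.6 CPM at pH 7 without IL-2 and 381 ± 49.5 CPM at pH 7 with IL-2. Itgb1 had means of 922 ± 74.7 CPM and 639 ± 63.5 CPM with IL-2 (-0.53 ± 0.08, adjusted p = 8.78e-07) and of 817 ± 110 CPM and 696 ± 71.9 CPM without it (-0.23 ± 0.08, adjusted p = 0.0174). The latter call was lost with RLE scaling (adjusted p = 0.0524), without the block (0.0675) and without replicate 4 (0.212). The Itgb1 means were 659 ± 122 CPM at 0 h, 842 ± 70.8 CPM at pH 7 without IL-2 and 830 ± 87.2 CPM at pH 7 with IL-2.

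Itgav, the shared alpha chain of the vitronectin receptors, did not follow Itgb3 and Itgb5. Its means were 180 ± 24.7 CPM at pH 7.4 and 173 ± 21.7 CPM at pH 6.6 with IL-2 (-0.06 ± 0.09, adjusted p = 0.565). Without IL-2 they were 109 ± 13.4 CPM and 162 ± 13.5 CPM (0.58 ± 0.09, adjusted p = 1.02e-06), and the difference of the effects was -0.64 ± 0.13 (adjusted p = 4.39e-05). The Itgav means were 163 ± 33.5 CPM at 0 h, 115 ± 15.2 CPM at pH 7 without IL-2 and 202 ± 15.2 CPM at pH 7 with IL-2. Itga5, the fibronectin receptor chain, had means of 12.1 ± 1.77 CPM and 9.1 ± 1.49 CPM with IL-2 (-0.41 ± 0.1, adjusted p = 0.000657) and of 7.33 ± 0.897 CPM and 6.86 ± 0.832 CPM without it (-0.09 ± 0.11, adjusted p = 0.452). The call with IL-2 was lost without replicate 3 (adjusted p = 0.0516). The Itga5 means were 11.3 ± 0.467 CPM at 0 h, 8.17 ± 0.706 CPM at pH 7 without IL-2 and 14.8 ± 2.35 CPM at pH 7 with IL-2. Itga3, a laminin receptor chain, had means of 4.77 ± 1.46 CPM and 5.03 ± 0.935 CPM with IL-2, where it was not called. Without IL-2 it was lower at pH 6.6, with means of 7.4 ± 0.666 CPM and 5.41 ± 0.331 CPM (-0.46 ± 0.15, adjusted p = 0.00957). The difference of its effects (0.55 ± 0.22, adjusted p = 0.0281) was lost without the block and without replicate 2 or 3 (adjusted p = 0.0716, 0.0773 and 0.0725). The Itga3 means were 5.47 ± 1.16 CPM at 0 h, 7.37 ± 1.19 CPM at pH 7 without IL-2 and 4 ± 0.995 CPM at pH 7 with IL-2.

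Compared per kilobase of exon, the pairs were unequal. At pH 7.4 with IL-2, Itgal and Itgb2 stood at 199 and 135 CPM per kb, while Itgax and Itgam, which share Itgb2, stood at 0.624 and 0.0265 CPM per kb. Itgb1 stood at 226 CPM per kb, and none of its alpha partners listed here exceeded the 16.7 CPM per kb of Itgav. Itgb3 moved from 11.1 CPM per kb at pH 7.4 with IL-2, below Itgav, to 70.6 CPM per kb at pH 6.6 with IL-2, above the 16.1 CPM per kb of Itgav there. Itgb5 stayed below Itgav, at 0.105 and 1.41 CPM per kb, and Itga2b stayed below Itgb3, at 0.206 and 2.23 CPM per kb. Itgae stood at 22 CPM per kb against 147 for Itgb7. These are levels of RNA and do not give the number of pairs at the surface.

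**Figure D4:**
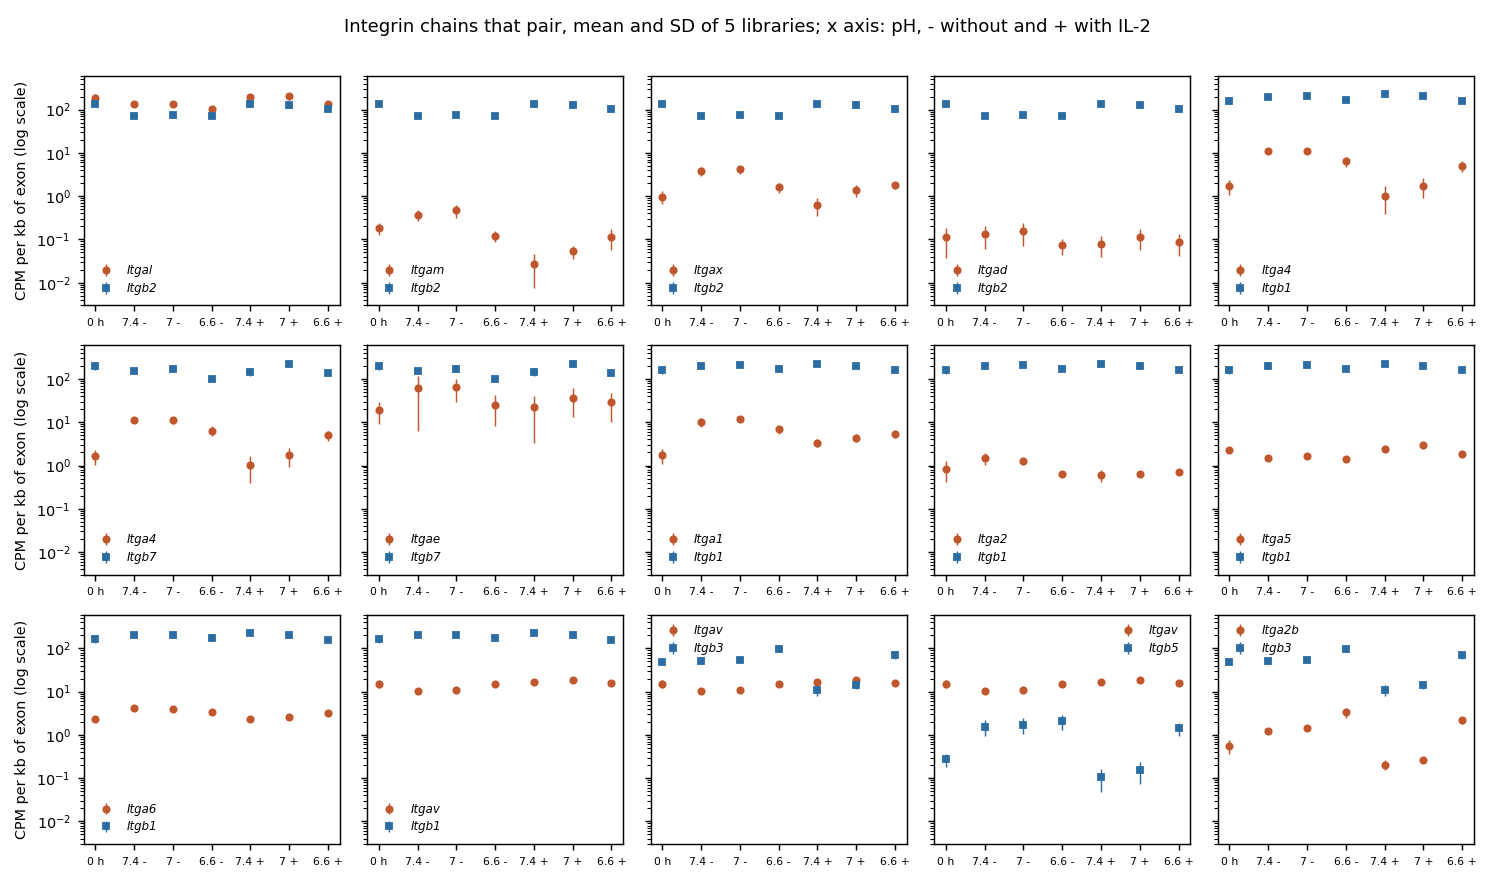
Mean CPM per kb of exon, with the SD of 5 libraries, of the alpha chain (orange circles) and beta chain (blue squares) of 15 known pairs in the 7 groups (log axis). Itgb3 lies below Itgav only at pH 7.4 and pH 7 with IL-2, and the beta 1, beta 2 and beta 7 chains lie above every alpha partner shown other than Itgal.

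The remaining integrin genes were of low level. Itga9, whose product binds tenascin and VCAM-1, was at 1.05, 2.95, 2.38, 3.6 and 3.43 CPM and 0.924, 1.16, 0.545, 1.85 and 1.46 CPM at pH 7.4 and pH 6.6 with IL-2 (-1.16 ± 0.22, adjusted p = 1.99e-05). In the absence of IL-2 it was at 0.485, 1.61, 1.36, 0.96 and 1.33 CPM and 0.295, 0.327, 0.454, 0.327 and 0.658 CPM (-1.48 ± 0.28, adjusted p = 2.97e-05), lower in 5 of 5 pairs in each setting although the groups overlapped. It was higher with IL-2 at pH 7.4 (1.2 ± 0.22, adjusted p = 8.32e-06) and at pH 6.6 (1.53 ± 0.29, adjusted p = 0.000143). The Itga9 libraries were 4.11, 9.74, 9.66, 8.71 and 6.71 CPM at 0 h, 0.714, 1.22, 0.745, 1.19 and 1.32 CPM at pH 7 without IL-2 and 1.31, 2.5, 1.99, 3.41 and 2.83 CPM at pH 7 with IL-2. Itga7, a laminin receptor chain of muscle, was at 1.55, 4.08, 4.36, 2.55 and 3.77 CPM after 24 h at pH 7.4 without IL-2, below every 0 h library (-3.15 ± 0.41, adjusted p = 7.88e-08). The Itga7 libraries were 45.4, 16.4, 13.7, 29.9 and 34.7 CPM at 0 h, 2.69, 4.07, 4.58, 2.5 and 3.72 CPM at pH 7 without IL-2 and 0.318, 0.542, 1.03, 1.2 and 1.18 CPM at pH 7 with IL-2. With IL-2 it was at 0.162, 2.64, 3.69, 4.55 and 10.3 CPM at pH 7.4 and 1.68, 2.04, 2.01, 1.89 and 1.5 CPM at pH 6.6, lower in 4 of 5 pairs with overlapping groups (-1.08 ± 0.46, adjusted p = 0.0356). That call was lost by DESeq2 (adjusted p = 0.0709), in the fit of only the groups compared (0.224), with the looser filter (0.082) and without replicate 3, 4 or 5 (0.0809, 0.113 and 0.406). Without IL-2 Itga7 was at 2.44, 2.29, 2.64, 3.36 and 3.57 CPM at pH 6.6 (-0.18 ± 0.44, adjusted p = 0.724).

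Itga10, a collagen receptor chain, was at 4.72, 4.95, 5.29, 7.09 and 7.28 CPM at pH 7.4 without IL-2 and at 2.51, 1.94, 2.67, 3.43 and 3.61 CPM with IL-2 (-1.05 ± 0.18, adjusted p = 4.29e-06). At pH 6.6 it was at 6.19, 4.15, 3.63, 6.46 and 4.84 CPM without IL-2 and 4.51, 3.12, 3.31, 4.52 and 3.79 CPM with IL-2. Its rise at pH 6.6 with IL-2 (0.45 ± 0.19, adjusted p = 0.0323) was lost without the block (adjusted p = 0.0833) and without replicate 2 or 4 (0.0914 and 0.0794). The Itga10 libraries were 7.24, 2.93, 3.01, 6.31 and 5.19 CPM at 0 h, 4.87, 5.95, 5.66, 6.97 and 8.1 CPM at pH 7 without IL-2 and 1.75, 2.93, 2.84, 3.41 and 2.62 CPM at pH 7 with IL-2. Of its exon bases, 33.5% are shared with another gene model on the same strand, so its values are uncertain. Itgad, beside Itgam and Itgax on chromosome 7, had means of 0.351 ± 0.177 CPM and 0.398 ± 0.212 CPM at pH 7.4 and pH 6.6 with IL-2 and of 0.59 ± 0.324 CPM and 0.335 ± 0.133 CPM without it. The Itgad means were 0.498 ± 0.33 CPM at 0 h, 0.702 ± 0.382 CPM at pH 7 without IL-2 and 0.513 ± 0.263 CPM at pH 7 with IL-2. Its fall at pH 6.6 without IL-2 (-0.78 ± 0.33, adjusted p = 0.038) was lost by DESeq2 (adjusted p = 0.0571). It was also lost with the looser filter (0.0623), without the block (0.136) and without replicate 1, 3 or 4 (0.206, 0.0756 and 0.0559). Itgb4, the beta chain of hemidesmosomes, had means of 0.43 ± 0.16 CPM and 0.315 ± 0.17 CPM at pH 7.4 and pH 6.6 with IL-2 and of 0.464 ± 0.204 CPM and 0.397 ± 0.219 CPM without it, and was not called at pH 6.6 in either setting. The Itgb4 means were 1.12 ± 0.21 CPM at 0 h, 1.13 ± 0.424 CPM at pH 7 without IL-2 and 0.443 ± 0.201 CPM at pH 7 with IL-2. At pH 7 its libraries were at 1.18, 1.38, 0.559, 0.902 and 1.65 CPM without IL-2 and 0.199, 0.506, 0.737, 0.435 and 0.338 CPM with it, lower in 4 of 5 pairs with overlapping groups (-1.35 ± 0.36, adjusted p = 0.00101). Itgb1bp2, the integrin-binding protein, was at 0.258, 0.353, 0.381, 0.376 and 0.856 CPM and 2.4, 1.44, 1.54, 1.84 and 1.17 CPM at pH 7.4 and pH 6.6 without IL-2 (1.95 ± 0.31, adjusted p = 1.59e-06). In the presence of IL-2 it was at 1.01, 0.764, 1.48, 1.53 and 1.9 CPM and 1.44, 1.84, 1.3, 1.81 and 1.42 CPM (0.26 ± 0.27, adjusted p = 0.379). The Itgb1bp2 libraries were 0.9, 0.586, 0.558, 0.366 and 0.195 CPM at 0 h, 0.588, 0.498, 0.671, 0.615 and 0.744 CPM at pH 7 without IL-2 and 0.556, 0.759, 0.81, 1.05 and 1.31 CPM at pH 7 with IL-2.

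The pH 6.6 comparison made with IL-2 and that made without it share no library, and the 34 genes are set side by side here. Both rest on the same 5 replicates and on 1 fit, so they are not independent. The 5 genes higher in both were S1pr2, Cxcr4, Itga2b, Itgb3 and Itgb5, and 8 were lower in both, among them Ccr2, Ccr4, Cxcr3, Cxcr6, Itga9, Itgal and Itgb1. Of all 13819 genes, 15.9% were higher in both and 17.9% lower in both. Another 6 were higher with IL-2 and lower without it, all of them alpha chains (Itga1, Itga4, Itga6, Itgae, Itgam and Itgax). Alpha chains make up 16 of the 34 genes tested. That pair of calls was found for 8.39% of all genes. For all 6 of these the interaction, the difference between the effects, passed the threshold, as it did for 4 of the 5 that rose in both. The 6 were picked by opposite calls in the comparisons that the interaction subtracts, so its passing for them adds no support. No gene of the 34 was lower with IL-2 and higher without it, against 9.89% of all genes. Over the 34 genes the interaction was called for 22 (64.7%), 18 with the higher value with IL-2, against a background of 67% of all genes, 34.3% with the higher value with IL-2. Of the 8 chemokine receptors it was called for Cx3cr1, Cxcr3 and Cxcr5. Calls of the interaction that ended in at least 1 alternative were those of Cxcr5, Itga3, Itga10, Itgae, Itgb1 and Itgb2.

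**Figure D5:**
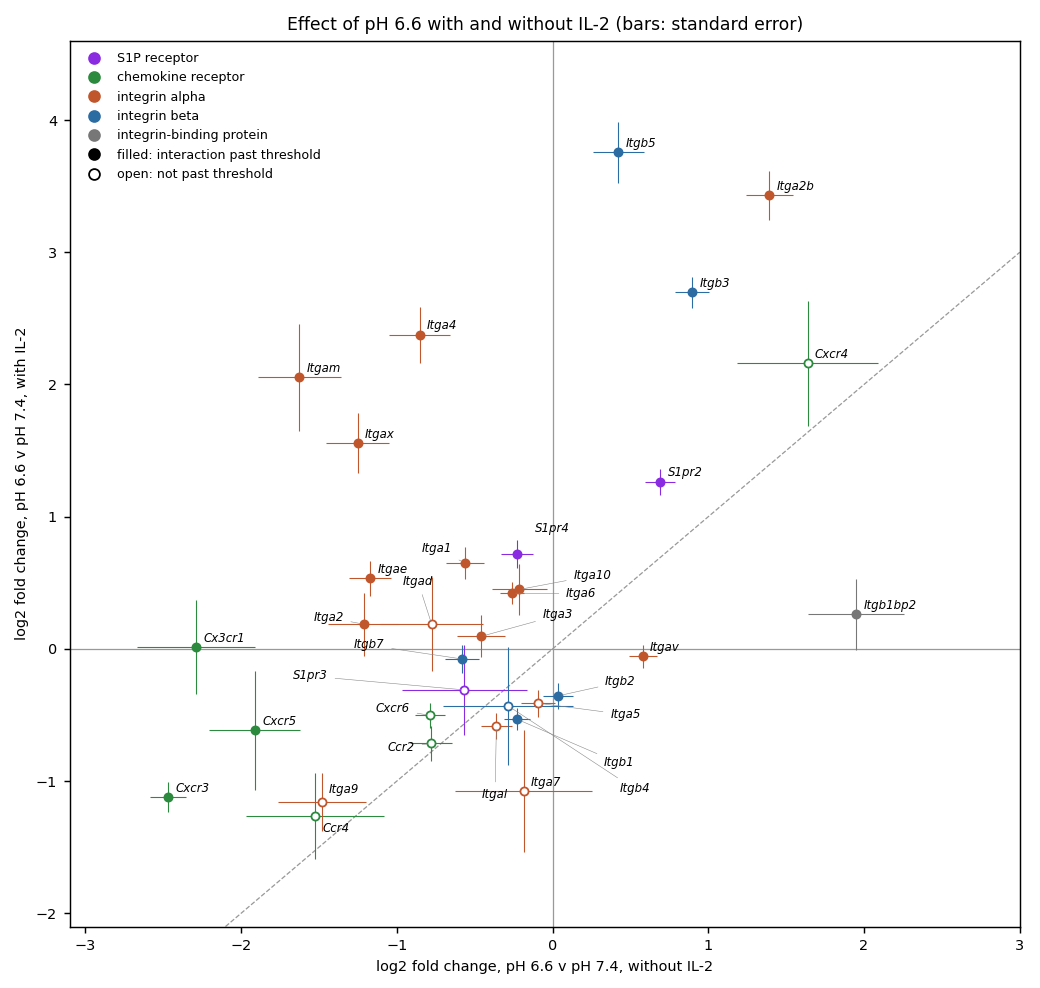
Log2 fold change at pH 6.6 against pH 7.4 without IL-2 (x axis) and with IL-2 (y axis) for 33 of the 34 tested genes, with standard errors, coloured by class and filled where the interaction was called. Itga4, Itgam and Itgax lie at the upper left, higher with IL-2 and lower without it, and Itgb5, Itga2b and Itgb3 lie above the dashed line of equal effects.

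Acidification to pH 7 gave smaller differences. With IL-2, 9 of the 34 genes were higher, 2 lower and 23 not called (32.4%, background 19%). Those higher were S1pr2, S1pr3, Itga1, Itga4, Itga5, Itgae, Itgax, Itgb3 and Itgb7. Itgax was at 9.54, 7.92, 6.48, 5.3 and 4.27 CPM at pH 7 with IL-2 (1.17 ± 0.22, adjusted p = 0.000434) and Itgae at 355, 162, 120, 126 and 80.0 CPM (0.86 ± 0.13, adjusted p = 3.38e-05), each higher than at pH 7.4 in 5 of 5 pairs. Itgb7, the partner of Itgae, had a mean of 615 ± 102 CPM at pH 7 against 409 ± 79.7 CPM at pH 7.4 (0.6 ± 0.11, adjusted p = 0.000233), while at pH 6.6 with IL-2 it was not called. Itga4 was at 43.4, 27, 20.4, 15.6 and 15 CPM (0.78 ± 0.21, adjusted p = 0.00874), and S1pr3 rose by a log2 fold change of 1.56 ± 0.29 (adjusted p = 0.000291; 0.123 without the block) on 18 to 73 reads per library. The rises of S1pr2 (0.29 ± 0.1), Itga1 (0.37 ± 0.12), Itga5 (0.29 ± 0.1) and Itgb3 (0.35 ± 0.11) were under 0.4 log2 units. Cxcr3 was lower (-0.33 ± 0.11, adjusted p = 0.0333), as was Itga7, from the widely spread libraries given above to 0.318, 0.542, 1.03, 1.2 and 1.18 CPM (-2.2 ± 0.5, adjusted p = 0.00256). The groups at pH 7 and pH 7.4 overlapped for every gene of the 34. The share of all genes with separate groups was not counted, so this overlap is not particular to these genes. Without the replicate block 3 genes were called (Itga7, Itgax and Itgb7), and without replicate 2 or replicate 3 there were 6 and 7. The call of Itga5 was lost whichever replicate was left out. Those of Itga1 and Cxcr3 were lost without replicate 2, 3, 4 or 5 and without 1, 2, 4 or 5. The call of S1pr2 was lost without replicate 1, 2 or 3 and that of Itgb3 without 2 or 3. With the looser filter the calls of S1pr2, Itga1 and Itga5 were lost.

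Without IL-2, no gene of the 34 was called at pH 7 against pH 7.4 by edgeR, where 1.68% of all genes were called. At an unadjusted p under 0.05 there were 4 (S1pr3, Cx3cr1, Itga1 and Itgb4), 11.8% of the genes against 8.13% of all genes. DESeq2 called 1 (Itgb4), and the fit of only the groups compared called 3 (Cx3cr1, Itga1 and Itgb4). Without replicate 1 there were 2 (Cx3cr1 and Itgb4). Cx3cr1 was at 3.57, 4.23, 3.95, 2.95 and 2.11 CPM at pH 7 without IL-2, higher than at pH 7.4 in 5 of 5 pairs (0.95 ± 0.29, adjusted p = 0.0973). Itgb4 had means of 0.464 ± 0.204 CPM and 1.13 ± 0.424 CPM (1.26 ± 0.35, adjusted p = 0.0635).

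For the 22 genes of the interaction, the effect of IL-2 differed between pH 7.4 and pH 6.6. At pH 7.4, where 30 of the 34 genes were called, the largest falls with IL-2 were those of Itgb5 (-3.88 ± 0.23), Itgam (-3.74 ± 0.34), Itga4 (-3.59 ± 0.22), Itgax (-2.62 ± 0.22), Itga2b (-2.61 ± 0.19), Cxcr5 (-2.33 ± 0.31) and Itgb3 (-2.22 ± 0.12). The largest rises were those of Ccr4, Itgb1bp2 (1.59 ± 0.31), Itga9 and Itgb2. At pH 7, 10 were higher with IL-2, 21 lower and 3 not called (91.2%, background 77.2%). Itgb5 (-3.43 ± 0.21), Itgam (-3.08 ± 0.29) and Itga4 (-2.77 ± 0.21) again had the largest falls, and Cxcr4, not called at pH 7.4, was lower (-1.4 ± 0.47, adjusted p = 0.00949), a call lost without replicate 1 (adjusted p = 0.061). At pH 6.6, 9 were higher with IL-2, 5 lower and 20 not called (41.2%, background 23.7%). The median size of the log2 fold change, regardless of sign, was 0.97 at pH 7.4 and 0.37 at pH 6.6 over the 34 genes, and 0.8 and 0.19 over all genes tested.

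The 9 genes higher with IL-2 at pH 6.6 included Ccr2, Ccr4, Cx3cr1, Itga5, Itga9, Itgal, Itgb2 and Itgb7. Ccr4 (2.04 ± 0.43, adjusted p = 0.000634) and Itga9 had the largest differences, followed by Cx3cr1 (1.3 ± 0.42, adjusted p = 0.0208). The 5 lower genes were S1pr4 (-0.33 ± 0.1), Itga1 (-0.37 ± 0.12), Itga2b (-0.57 ± 0.15), Itgb3 (-0.42 ± 0.11) and Itgb5 (-0.54 ± 0.16). Among the named genes that were called, the groups with and without IL-2 were separate for Ccr4, Itgb2 and Itgb7. They were also separate for Itga7, which was not called. The share of all genes with separate groups was not counted here either. The call of S1pr4 was lost without replicate 3, 4 or 5, that of Cx3cr1 without 1, 3 or 5, that of Itga1 without 3, 4 or 5, that of Itga5 without 5 and that of Itgb5 without 4. Without the replicate block 9 of the 34 were called instead of 14.

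Against 0 h, the 24 h at pH 7.4 with IL-2 left 4 genes higher, 14 lower and 16 not called (52.9%, background 59.9%). The lower genes included Itga7 (-2.89 ± 0.41), Itgam (-2.73 ± 0.37), Itgb3 (-2.17 ± 0.12) and Itga9 (-1.58 ± 0.19), and the higher ones were Cxcr5 (1.14 ± 0.47), Itga1 (0.98 ± 0.13), Itgb1 (0.5 ± 0.08) and Itgb1bp2 (1.31 ± 0.31). The call of Cxcr5 was lost without replicate 3, 4 or 5, that of Cxcr4 without replicate 1 or 4, and that of Itgax without replicate 3. The 24 h at pH 7.4 without IL-2 left 15 higher, 11 lower and 8 not called (76.5%, background 75.2%). Cxcr5, Itga4 (2.8 ± 0.21), Itga1 (2.56 ± 0.13), Itgb5 (2.47 ± 0.2), Itgax (1.96 ± 0.21), Itgae (1.53 ± 0.14) and Cxcr3 had the largest rises. Itga7, Itga9 (-2.78 ± 0.21) and Ccr4 (-1.97 ± 0.33) had the largest falls. Of these, the calls of S1pr2, S1pr4 and Itga3 (all under 0.5 log2 units) were lost when 1 replicate was left out, S1pr2 without replicate 1, 2, 3 or 5, S1pr4 without 2 or 3 and Itga3 without 3. Both comparisons share the 0 h libraries.

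A pair of gene lists around these receptors was counted beside them. Of 33 tested genes of integrin activation and its adaptors, 14 were higher, 11 lower and 8 not called at pH 6.6 with IL-2, with a median log2 fold change of 0.02. The share called, 75.8%, was close to the background of 76.3%. The largest rises were those of the adaptors Parvb (2.35 ± 0.3) and Fyb (2.05 ± 0.06) and the exchange factor Cyth1 (1.16 ± 0.07). The largest falls were those of Ptk2 (focal adhesion kinase, -4.21 ± 0.51), Tln2 (a talin, -3.42 ± 0.37) and the LFA-1 ligand Icam2 (-1.42 ± 0.13). Without IL-2, 11 were higher, 10 lower and 12 not called (63.6%, background 67%), with Fyb at 0.99 ± 0.06, Ptk2 at -2.12 ± 0.73, Tln2 at -3.7 ± 0.54 and Icam2 at -2.34 ± 0.12. Parvb, the largest rise with IL-2, was not called there by edgeR or by DESeq2. With IL-2 against without it, 11 were higher, 15 lower and 7 not called at pH 7.4 (78.8%, background 80.4%). At pH 6.6, 2 were higher, 4 lower and 27 not called (18.2%, background 23.7%).

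Of 28 tested genes of chemokine receptor signalling and desensitisation, 10 were higher, 6 lower and 12 not called at pH 6.6 with IL-2, with a median log2 fold change of 0.09. The share called was 57.1%, below the background of 76.3%. The receptor kinase Grk3 (1.3 ± 0.3) and the G protein subunits Gnaq (1.22 ± 0.08) and Gna13 (0.98 ± 0.08) had the largest rises. The Rac exchange factor partner Elmo1 (-1.07 ± 0.08), the G protein subunit Gnb1 (-0.64 ± 0.05) and the GTPase Cdc42 (-0.55 ± 0.07) had the largest falls. Without IL-2, 13 were higher, 8 lower and 7 not called (75%, background 67%). There Gnaq (0.68 ± 0.08) and Gna13 (0.76 ± 0.08) were higher, Grk3 was lower (-0.65 ± 0.26), and Gnb1 (0.32 ± 0.05) and Cdc42 (0.18 ± 0.07) were higher. At pH 7 with IL-2, 6 genes of the first list were higher, 1 was lower and 26 were not called (21.2%), and of the second 3 were higher, 3 lower and 22 not called (21.4%), against a background of 19%. At pH 7 without IL-2, 0 of the 33 genes of the first list were called by edgeR and 0 by DESeq2, with 1 (Parvg) at an unadjusted p under 0.05. Of the 28 of the second, edgeR and DESeq2 each called 1, the G protein subunit Gna12, which was higher (0.45 ± 0.12, adjusted p = 0.048 by edgeR).

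The other 15 genes had too few reads to be tested. Ccr6 and Itga11 were listed at 0 in every library. S1pr5, Itga8, Itgb2l and Itgb6 had at most 1 read in a library, Cxcr2 and Itgb8 at most 2, Cxcr1 at most 3, and Ccr3 and Xcr1 at most 5. Ccr9 reached 10 reads, Ccr10 13, Ccr8 17 and Ccr1 26. At this depth their differences between groups could not be tested.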

How the data were processed

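RNA from 35 libraries was sequenced as single reads from TruSeq Stranded mRNA libraries. The authors deposited raw read counts per gene. The submitters' processing notes name cutadapt 1.8, STAR 2.5.2b, HTSeq 0.6.1 and GRCm38. The strand setting of the counting is not given in the sources used here. Rows that name no gene (no feature, median 7.42%, and not unique, median 37.1%, of all reads) were left out. Symbols and coordinates were from GENCODE on GRCm38.

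Counts were TMM-scaled and fitted with edgeR 4.0.16 (robust quasi-likelihood, R 4.3.3) over all 7 groups, with the replicate number as a block, as the study's tests were paired. Same-numbered libraries deviated together in 95 of 105 pairs (correlation over 0.1). Genes with too few reads were removed (filterByExpr, minimum count 10), which left 13819. P-values were adjusted by Benjamini-Hochberg over all of them. The fit was tested on simulated data. These held no differences between replicates and few changed genes, so they do not test the block, or the scaling where most genes change. SE is the fold change over the root of F.

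The genes and lists were chosen with earlier results of these data known. A few genes are not reported here by name. All other genes are named, and each library's value is given where a called change at pH 6.6, or with IL-2 at the highest or lowest pH, reached 1 log2 unit. RLE scaling, DESeq2 1.42.0, other filters (at least 1 count in any library, at least 10 in every library), fits of only the groups compared, no block and leaving out each replicate were the alternatives. Protein sequences were not used here.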

Additional observations from a re-analysis of the deposited data

Results flagged for a closer look

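In 27 of 231 groups of 5 libraries, 1 library stood apart from the other 4 by Dixon's test on CPM (gap over range above 0.71). For independent, normally spread values chance gives about 1 in 20 such groups. These groups share the same 5 replicates and some rest on few reads, so their count cannot be set against that rate. Replicate 1 was that library in 22 of the 27, and why it differed was not tested. S1pr2 was at 29.4 CPM in replicate 5 at pH 7.4 without IL-2 (others 25.3 to 26.4) and 32.1 CPM in replicate 1 at pH 6.6 without IL-2 (others 44.2 to 47.8). S1pr3 was at 1.39 CPM in replicate 1 at pH 7.4 without IL-2 (others 0.0423 to 0.3) and 1.56 CPM in replicate 1 at pH 6.6 with IL-2 (others 0.25 to 0.452). Ccr4 was at 2.39 CPM in replicate 1 at pH 7.4 without IL-2 (others 0.668 to 0.932), 1.89 CPM in replicate 1 at pH 7 without IL-2 (others 0.496 to 0.894) and 1.01 CPM in replicate 1 at pH 6.6 without IL-2 (others 0.164 to 0.318). Cx3cr1 was at 3.33 CPM in replicate 1 at pH 7.4 without IL-2 (others 1.22 to 1.74) and 2.51 CPM in replicate 1 at pH 7.4 with IL-2 (others 0.248 to 0.903). Cxcr3 was at 22.2 CPM in replicate 1 at pH 6.6 without IL-2 (others 10.9 to 13.8). Cxcr5 was at 0.414 CPM in replicate 4 at pH 7.4 with IL-2 (others 0.122 to 0.164). Cxcr6 was at 337 CPM in replicate 1 at pH 6.6 without IL-2 (others 238 to 267) and 359 CPM in replicate 1 at pH 6.6 with IL-2 (others 215 to 253).

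Of the integrin genes, Itgae stood apart in 5 groups, each time with replicate 1 highest. Itga2 was at 11.7 CPM in replicate 3 at pH 7 without IL-2 (others 8.1 to 9.06). Itga3 was at 3.41 CPM in replicate 1 at pH 6.6 with IL-2 (others 5.03 to 5.63). Itgae was at 742 CPM in replicate 1 at pH 7.4 without IL-2 (others 147 to 190), 581 CPM in replicate 1 at pH 7 without IL-2 (others 191 to 248) and 259 CPM in replicate 1 at pH 6.6 without IL-2 (others 66.9 to 103). Itgae was also at 250 CPM in replicate 1 at pH 7.4 with IL-2 (others 36.3 to 86.8) and 286 CPM in replicate 1 at pH 6.6 with IL-2 (others 80.7 to 126). Itgam was at 1.39 CPM in replicate 2 at 0 h (others 0.73 to 0.861). Itgb1 was at 445 CPM in replicate 1 at 0 h (others 688 to 745) and 718 CPM in replicate 1 at pH 7 without IL-2 (others 858 to 893). Itgb3 was at 33.7 CPM in replicate 1 at pH 7.4 with IL-2 (others 66.1 to 78.4). Itgb5 was at 1.96 CPM in replicate 1 at pH 6.6 with IL-2 (others 5.59 to 6.24). Itgb7 was at 548 CPM in replicate 1 at pH 7.4 with IL-2 (others 346 to 391). Itgb1bp2 was at 0.856 CPM in replicate 5 at pH 7.4 without IL-2 (others 0.258 to 0.381).

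The effect of pH 6.6 (log2 fold change against pH 7.4) differed between the settings with and without IL-2 for 22 genes by the interaction test of edgeR. The difference, with IL-2 minus without, was 0.57 for S1pr2, 0.95 for S1pr4, 2.3 for Cx3cr1, 1.35 for Cxcr3 and 1.3 for Cxcr5. Among the integrin genes it was 3.68 for Itgam, 3.33 for Itgb5, 3.23 for Itga4, 2.81 for Itgax, 2.04 for Itga2b, 1.8 for Itgb3, 1.7 for Itgae, 1.4 for Itga2, 1.21 for Itga1, 0.68 for Itga6, 0.66 for Itga10, 0.55 for Itga3 and 0.5 for Itgb7. It was below 0 for Itgav (-0.64), Itgb1 (-0.31), Itgb2 (-0.39) and Itgb1bp2 (-1.69).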

How the results depend on the processing

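Over 3630 values of single genes under the alternatives, 3442 kept their side of the threshold, 139 lost a call, 49 gained one and none with a call in either fit changed direction. Without the replicate block, 3 genes of the 34 were called at pH 7 with IL-2 (11 with it) and 9 for IL-2 at pH 6.6 (14 with it), and over all genes 1660 (2623) at pH 7 with IL-2 and 56 (232) at that pH without it. Fits of only the groups compared called 4397 genes at pH 7 with IL-2, 926 at pH 7 without IL-2 and 5494 (3278) for IL-2 at pH 6.6, and 3 of the 34 at pH 7 without IL-2, where DESeq2 called 1 and edgeR 0. Leaving out 1 replicate at a time gave 6 to 9 of the 34 and 1323 to 2388 of all genes in the comparison of pH 7 given IL-2, 0 to 2 and 42 to 336 at pH 7 without IL-2, and 2120 to 2801 of all genes for IL-2 at pH 6.6. The cause of these changes was not tested. Calls of genes with few reads, such as Cxcr5, Itgad and Itga7, were among those lost, and all values are of RNA.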
